A study of Mus musculus with 15 samples.

Results

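Liver allografts of mice removed on day 14 after transplantation were compared with allografts removed on day 5, over all mouse miRNAs of an Agilent microarray. The comparison took the 6 arrays labelled as allogeneic day 14 (3 arrays) and allogeneic day 5 (3 arrays) out of the 15 arrays of the series, with 1 mouse per array. Both groups were whole liver grafts of B10.BR donors (H2-Kk) placed orthotopically in B10.D2 recipients (H2-Kd). The mice were male, their age was not given in the sources used here, and no immunosuppressant was used in either group, and the labels tell the groups apart by the day of removal. The other 9 arrays were allografts of the same strains on day 8 and day 100 and syngeneic grafts on day 5, with 3 arrays each. Although the strain label of the syngeneic arrays repeats the allogeneic pair, their titles call them syngeneic, and this was followed. The 9 arrays enter here through the scaling and its floor, the choice of miRNAs tested (103, against 99 from day 14 and day 5 alone) and the shared estimate of the spread, and the syngeneic arrays also as a bridge between slides.

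MiRNAs are short RNAs that guide Argonaute proteins to messenger RNAs and lower their stability and translation. Pairing rests mainly on the seed, bases 2 to 8 of the miRNA, so miRNAs with the same seed are counted as a family. In the liver, hepatocytes are rich in miR-122, whereas infiltrating leukocytes carry miR-142, miR-223, miR-155 and miR-342. A rejected graft holds both kinds of cells, and whole-graft RNA is a mixture. In such bulk samples fewer cells of a type and less of a miRNA per cell cannot be told apart.

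Of the 13 miRNAs that were called different between the days, 12 had a mature sequence in the set of RefSeq sequences used here, and miR-122 did not. The 12 are printed first because the results turn on them. The seed is in capitals. The 3 miRNAs called higher on day 14 had unrelated seeds.
miR-342-3p: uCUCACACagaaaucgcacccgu
miR-652 (miR-652-3p in RefSeq): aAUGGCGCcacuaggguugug
miR-322 (miR-322-5p in RefSeq): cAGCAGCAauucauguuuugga
In the assembly GRCm38.p6, miR-342-3p lies at chr12:108658680-108658702 on the plus strand within the span of Evl, and miR-652-3p at chrX:142739060-142739080 on the plus strand within that of Tmem164. MiR-322-5p lies at chrX:53054306-53054327 on the minus strand within the span of the noncoding gene C430049B03Rik, with Mir503, Mir351, Mir542 and 3 genes of miR-450 within 10 kb. The seed of miR-322 is that of the miR-15/16 family, of which 6 members were tested.
miR-15a: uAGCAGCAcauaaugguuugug
miR-15b: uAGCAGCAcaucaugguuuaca
miR-16: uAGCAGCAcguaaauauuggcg
miR-195 (miR-195a-5p): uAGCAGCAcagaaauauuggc
miR-497 (miR-497a-5p): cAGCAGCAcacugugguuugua

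The miRNAs called lower on day 14 held 2 close relatives, miR-101a and miR-101b, and for miR-26b and let-7f a relative that was not called is shown beneath the called one.
miR-101b (miR-101b-3p): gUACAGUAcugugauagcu
miR-101a (miR-101a-3p): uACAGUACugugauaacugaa
miR-26b (miR-26b-5p): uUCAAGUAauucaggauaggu
miR-26a (miR-26a-5p): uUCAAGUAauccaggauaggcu
let-7f (let-7f-5p): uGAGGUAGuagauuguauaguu
let-7a (let-7a-5p): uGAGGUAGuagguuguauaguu
The RefSeq entry of miR-101b starts 1 base upstream of that of miR-101a, which shifts its bases 2 to 8 by 1. Counted from the first base of miR-101a, they differ at 1 of the 18 shared positions, A16G. From the first base of each, miR-26a and miR-26b differ by C11U and C21U over 21 positions, and let-7a and let-7f by G12A over 22. MiR-101a-3p lies at chr4:101346957-101346977 on the minus strand and miR-101b-3p at chr19:29135338-29135356 on the plus strand within the span of Rcl1. MiR-26b-5p lies at chr1:74394324-74394344 on the plus strand within Ctdsp1.

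The other miRNAs called lower that have an entry in the set used were miR-192, miR-194, miR-148a, miR-22 and miR-7a, which share no seed with each other.
miR-192 (miR-192-5p): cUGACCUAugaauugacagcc
miR-194 (miR-194-5p): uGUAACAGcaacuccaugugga
miR-148a (miR-148a-3p): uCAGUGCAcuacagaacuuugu
miR-22 (miR-22-3p): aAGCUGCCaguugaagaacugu
miR-7a (miR-7a-5p): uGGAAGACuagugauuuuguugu
MiR-192-5p lies at chr19:6264857-6264877 on the plus strand, and Mir194-2 is within 10 kb of it, with its miR-194-5p at chr19:6264658-6264679. A second copy of miR-194-5p lies beside Mir215 at chr1:185313325-185313346 on the plus strand within the span of Iars2.

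Probes for 567 mouse miRNAs are printed on the array, with 1 to 4 probes for each. The value used throughout is the scaled log2 signal, the log2 of a miRNA's summed intensity divided by the 75th percentile of 52 miRNAs that were detected on all 15 arrays. A value of 0 thus equals that percentile, and a floor was set at -5.21. On the 6 arrays 443 miRNAs were detected on none and 81 on all. The number detected was 98, 112 and 115 on the arrays of day 14 and 84, 111 and 114 on those of day 5. Replicate 3 of day 5 had the lowest count, the lowest percentile (457 intensity units, where the other 5 arrays had 750 to 1018) and stood apart for several miRNAs named below. The days lay on different slides, day 14 with syngeneic replicates 1 and 2 and day 5 with syngeneic replicate 3. Values are therefore given both as measured and with the slide as a block, which is bridged by the 3 syngeneic arrays alone.

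Between day 5 and day 14 the changes called were a rise of 3 miRNAs, led by miR-342-3p, and a fall of 10 that included the hepatocyte miRNAs miR-122, miR-192, miR-194 and miR-148a. After scaling, the median log2 difference over the 103 tested miRNAs was -0.005. Limma called 13 miRNAs different (12.6% of those tested). Day 14 was higher for 3 (2.91%) and lower for 10 (9.71%), and 30 passed an unadjusted p under 0.05 (29.1%). For all 13, the 3 arrays of day 14 lay wholly above or below those of day 5. This was so for 44 of the 103 miRNAs (42.7%), with 21 above (20.4%) and 23 below (22.3%). With 3 arrays a day, the smallest two-sided p of an exact permutation test is 0.1, so no single miRNA was tested that way. The split into higher and lower moved with the scaling. It was 9 higher and 11 lower with median scaling, 7 and 13 with the percentile taken over miRNAs detected on the 6 arrays, 4 and 8 with quantile normalization, 1 and 2 with the percentile over all mouse miRNAs, and 1 and 0 without scaling.

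**Figure D1:**
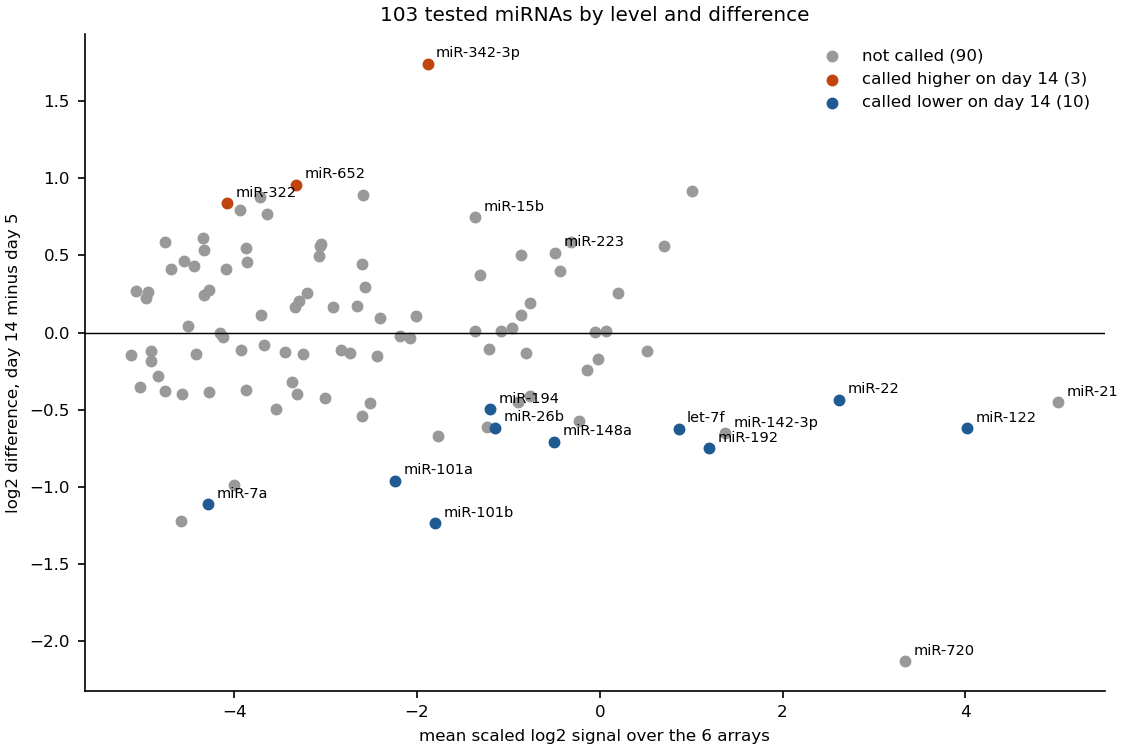
Log2 difference between day 14 and day 5 (vertical axis) against the mean scaled log2 signal over the 6 arrays (horizontal axis) for the 103 tested miRNAs, each point 1 miRNA. The 3 miRNAs called higher lie at a signal under -1, the 10 called lower span the range from miR-7a to miR-122, and miR-720, with the largest difference, was not called.

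With the slide as a fixed block, limma called 2 of the 103 miRNAs (1.94%), both higher on day 14, and 18 passed an unadjusted p under 0.05 (17.5%). These were miR-342-3p and miR-322, and none of the 10 falls was called (0 of 103 lower). The block added to each difference the amount by which syngeneic replicate 3 exceeded the mean of syngeneic replicates 1 and 2. That amount had a median of 0.34 on the log2 scale over the tested miRNAs and was above 0 for 76 of the 103, including all 13 called ones. The blocked differences therefore had a median of 0.32, all 10 falls moved towards 0 and all 3 rises away from it, while 13 of 13 kept their sign. The block rests on 3 arrays, and the median standard error of a difference went from 0.24 to 0.39. Without replicate 1 of day 14 the measured comparison kept 5 of its 13 calls (miR-342-3p, miR-322, miR-101b, miR-192 and miR-7a), and without replicate 2 of day 5 it kept 7. With replicate 3 of day 5 left out there were 13 calls, 11 of them the same. With syngeneic replicate 1 left out of the blocked fit, 13 miRNAs were called, 10 of them higher. With the slide as a random block (correlation 0.445), 3 were called, namely miR-342-3p, miR-322 and miR-101b.

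**Figure D2:**
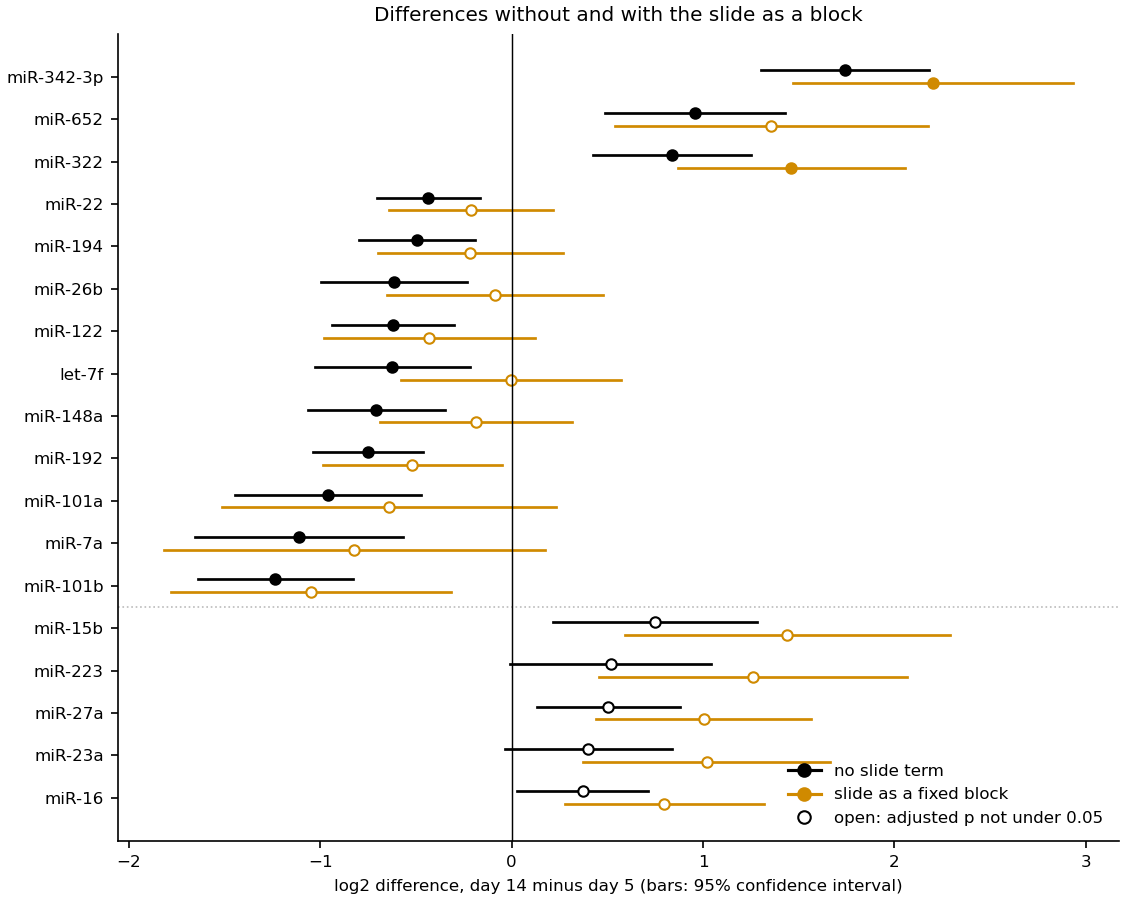
Log2 difference between day 14 and day 5 with its 95% confidence interval, as measured (black) and with the slide as a fixed block (orange), for the 13 called miRNAs and, under the dotted line, 5 miRNAs of the lists that were not called. Filled points have an adjusted p under 0.05. MiR-342-3p and miR-322 are filled in both fits.

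MiR-342-3p, a miRNA of blood cells encoded within Evl, had the largest rise. Its scaled log2 signal was -0.78, -1.27 and -0.99 on the arrays of day 14 and -3.10, -2.73 and -2.43 on those of day 5. The days were more than 1 log2 unit apart at their nearest arrays. The difference was 1.74 (standard error 0.20, limma, adjusted p = 0.00011), a 3.35-fold higher level, and the 2 probes gave 1.72 and 1.78. Blocked for slide it was 2.20 (95% confidence interval 1.47 to 2.93, limma, adjusted p = 0.0032). Of the syngeneic arrays that bridge the slides, only replicate 3 detected it (-4.75). Replicates 1 and 2 lay at the floor (-5.21), so the floor entered the slide shift and its spread. MiR-342-3p was called with each of the 15 arrays left out in turn. MiR-342-5p, the other arm of the same hairpin, was detected on none of the 6 arrays.

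MiR-652 was dim. Its scaled log2 signal was -2.66, -2.96 and -2.91 on day 14 and -3.78, -3.81 and -3.81 on day 5, which is 96.3 to 135 intensity units against 32.6 to 67.6. All arrays of day 14 were higher. The difference was 0.96 (standard error 0.22, limma, adjusted p = 0.012), or 1.94-fold. The brighter probe of the pair gave 0.93. The dimmer one, detected on no array of day 5 and 2 of day 14, averaged 16.9 intensity units on day 14 and 7.02 on day 5 before scaling, and its difference of 0.00 was set by the floor. In the blocked fit it was 1.36 with an adjusted p of 0.075 from limma.

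MiR-322, the mouse counterpart of human miR-424 and a miRNA known for acting on cell cycle genes, was also dim. Its signal was -3.79, -3.86 and -3.31 on day 14 and -4.44, -4.69 and -4.35 on day 5, or 51.6 to 103 intensity units against 22.4 to 40.9. Day 14 had it detected on all 3 arrays and day 5 on 2. It passed the filter for testing only through days 14 and 8, on which it was highest. With detection required on all 6 arrays it was not tested. The difference was 0.84 (standard error 0.19, limma, adjusted p = 0.012), or 1.79-fold, with 0.54 and 0.84 from its probes. In the blocked fit it was 1.46 (95% confidence interval 0.87 to 2.05, limma, adjusted p = 0.0093). Here too only syngeneic replicate 3 detected it (-4.57). Replicates 1 and 2 lay near or at the floor (-5.18 and -5.21), which entered the slide shift. The call was lost without replicate 2 of day 5, and with the floor multiplied by 4 every array lay at the floor.

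**Figure D3:**
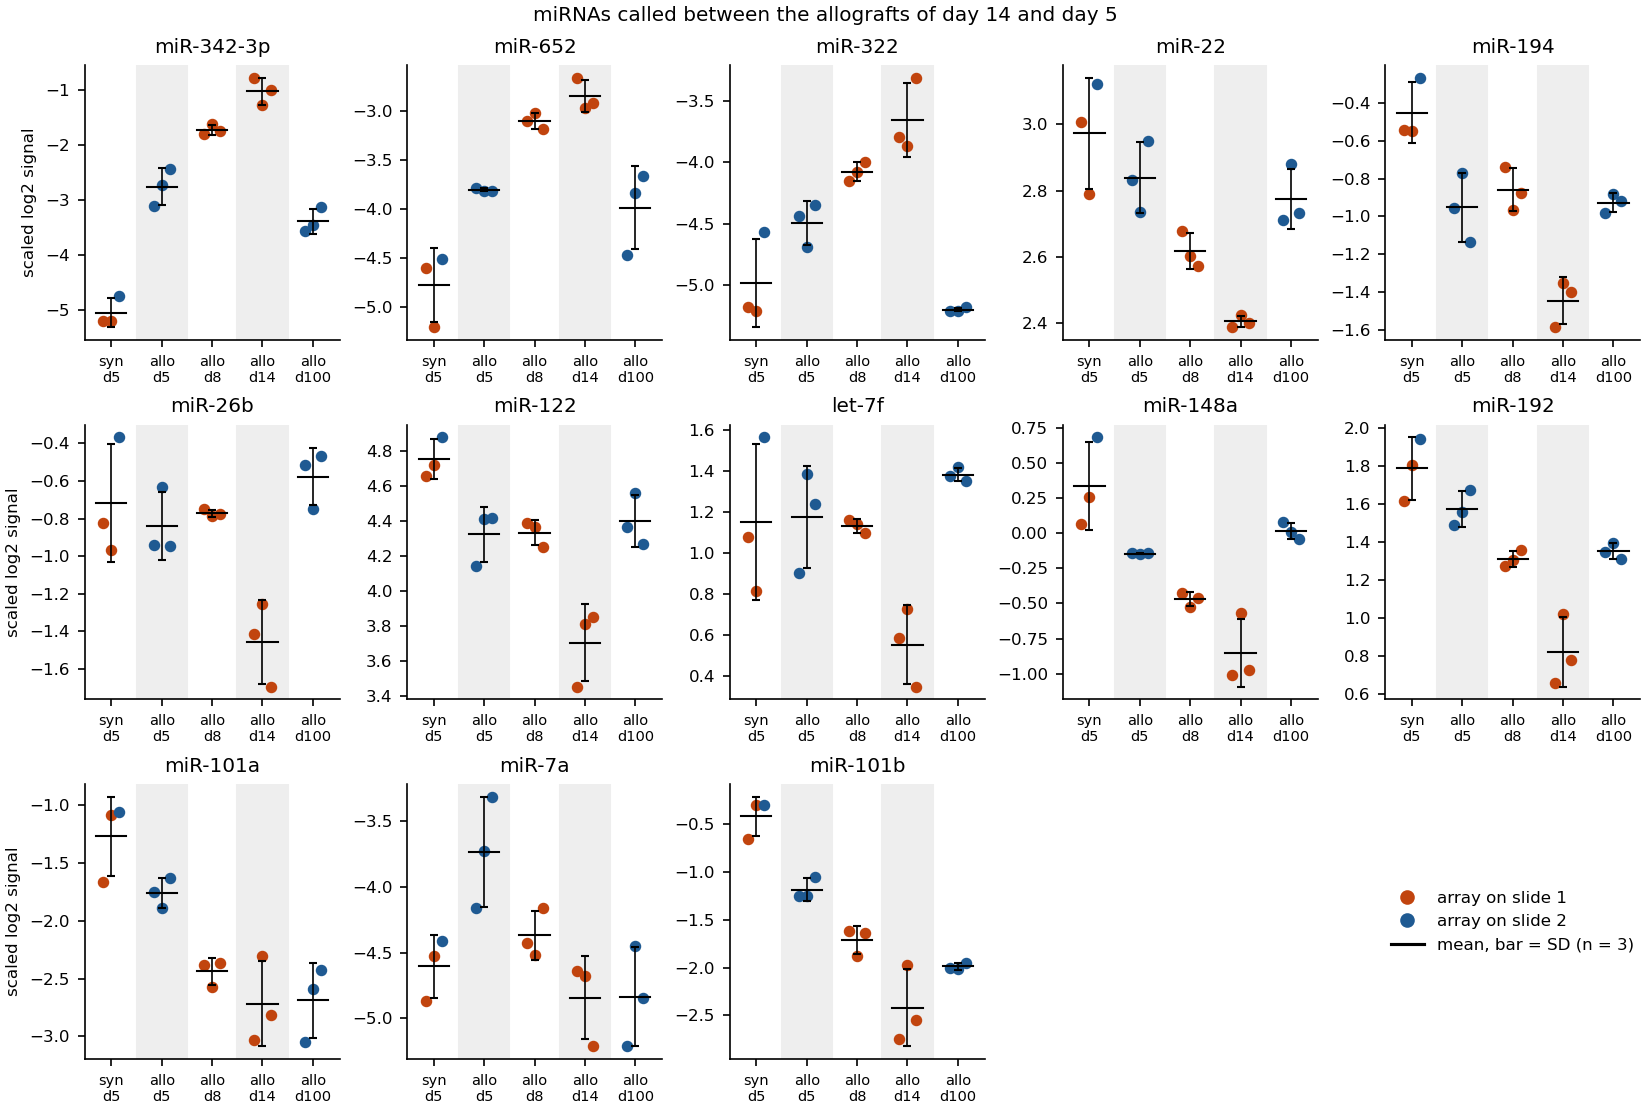
Scaled log2 signal of the 13 called miRNAs on each of the 15 arrays, by group (syn, syngeneic; allo, allogeneic; d, day), with the mean and SD (n = 3) and the arrays coloured by slide. The 2 days compared are shaded and do not overlap in any panel. Days 8 and 14 share slide 1, and days 5 and 100 share slide 2.

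MiR-101b and miR-101a, known for acting on the histone methyltransferase Ezh2, fell together. MiR-101b was at -2.75, -1.97 and -2.55 on day 14 and at -1.26, -1.25 and -1.05 on day 5. MiR-101a was at -3.03, -2.30 and -2.81 on day 14 and at -1.75, -1.89 and -1.63 on day 5. Replicate 2 of day 14 was the nearest to day 5 for both. The differences were -1.23 for miR-101b (standard error 0.19, limma, adjusted p = 0.00090) and -0.96 for miR-101a (standard error 0.22, limma, adjusted p = 0.012), or 2.35-fold and 1.94-fold lower, and both probes of each miRNA moved that way. In the ratio of miR-101b to miR-101a within an array, an array's scaling factor cancels, though quantile normalization does not. On the log2 scale this ratio was 0.28, 0.33 and 0.27 on day 14 and 0.50, 0.63 and 0.58 on day 5. Blocked for slide, the differences were -1.05 (95% confidence interval -1.78 to -0.32, limma, adjusted p = 0.10) and -0.64 (limma, adjusted p = 0.39). MiR-101b was called with each array left out, and miR-101a was lost without replicate 1 of day 14.

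The hepatocyte list held 6 miRNAs, all of which were tested. The 6 had lower means on day 14, with a median log2 difference of -0.62 against -0.005 over all tested, and limma called 4 lower and 0 higher, where 9.71% of the tested miRNAs were called lower. For 6 of 6 the arrays of day 14 lay wholly below those of day 5. The list was chosen with earlier results of these data known. Its member miR-148a is also among the 10 miRNAs that the study picked from these grafts. Over all tested miRNAs 23 of 103 (22.3%) lay wholly below, and 44 (42.7%) did not overlap. The summed scaled signal of the list, before the log2, was 13.8 to 17.7 on day 14 and 22.5 to 26.7 on day 5. Most of this sum was miR-122. In the blocked fit the median of the list was -0.32, set against 0.32 over all tested. There, 1 of the 6 changed sign (miR-365) and 0 were called. The calls also moved with the scaling. Median scaling and the percentile over the 6 arrays' miRNAs kept 4 called lower. Quantile normalization called 1 lower and turned the sign of 1. The percentile over all mouse miRNAs called 0, as did no scaling.

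MiR-122, the defining hepatocyte miRNA, was detected on all 6 arrays of these liver grafts at 9002 to 20244 intensity units. Its scaled log2 signal was 3.45, 3.81 and 3.86 on day 14 and 4.15, 4.42 and 4.42 on day 5. The groups did not overlap. The difference was -0.62 (standard error 0.15, limma, adjusted p = 0.012), or 1.54-fold lower, and the blocked one -0.43 (95% confidence interval -0.98 to 0.12). Quantile normalization turned its direction (0.31), whereas its sign held under the other 4 scalings, of which 2 (the median and the percentile over the 6 arrays' miRNAs) called it.

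MiR-192 and miR-194, which are encoded side by side and are known from liver and gut epithelium, both fell. MiR-192 was at 0.66, 1.02 and 0.78 on day 14 and at 1.49, 1.55 and 1.67 on day 5, a difference of -0.75 (standard error 0.13, limma, adjusted p = 0.0028). MiR-194 was at -1.59, -1.35 and -1.40 on day 14 and at -0.95, -0.77 and -1.13 on day 5, a difference of -0.49 (standard error 0.14, limma, adjusted p = 0.035). The log2 ratio of miR-192 to miR-194 within an array overlapped between the days, with a mean of 2.27 on day 14 and 2.52 on day 5. Blocked for slide, the differences were -0.52 (95% confidence interval -0.99 to -0.05, limma, adjusted p = 0.21) and -0.21 (limma, adjusted p = 0.56). MiR-192 was called with each array left out.

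MiR-148a, known for acting on the DNA methyltransferase Dnmt1, was at -1.01, -0.57 and -0.97 on day 14 and at -0.14, -0.15 and -0.14 on day 5. The arrays of day 5 lay within 0.01 of each other, and all of day 14 were lower. The difference was -0.71 (standard error 0.16, limma, adjusted p = 0.012), and with the slide as a block -0.19 (limma, adjusted p = 0.62). The remaining hepatocyte miRNAs, miR-193 (-0.61, limma, adjusted p = 0.17) and miR-365 (-0.42, limma, adjusted p = 0.17), were not called.

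MiR-26b and let-7f were called lower while a close relative of each was not. MiR-26b was at -1.42, -1.25 and -1.70 on day 14 and at -0.94, -0.63 and -0.95 on day 5, a difference of -0.62 (standard error 0.18, limma, adjusted p = 0.035). MiR-26a was at -0.92, -0.98 and -0.95 on day 14 and at -0.97, -0.83 and -1.13 on day 5, a difference of 0.03 (standard error 0.16). The log2 ratio of miR-26b to miR-26a within an array was -0.49, -0.28 and -0.75 on day 14 and 0.03, 0.20 and 0.18 on day 5, without overlap.

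Let-7f was at 0.59, 0.73 and 0.35 on day 14 and at 0.90, 1.38 and 1.24 on day 5, a difference of -0.62 (standard error 0.19, limma, adjusted p = 0.045). Let-7a, which differs from it by 1 base, was at 0.43, 0.48 and 0.45 on day 14 and at 0.28, 0.86 and 0.58 on day 5, a difference of -0.12 (limma, adjusted p = 0.75). The log2 ratio of let-7f to let-7a was 0.16, 0.24 and -0.10 on day 14 and 0.63, 0.52 and 0.66 on day 5, without overlap. In the blocked fit the single differences were -0.09 for miR-26b and -0.00 for let-7f (limma, adjusted p = 0.81 and 0.99), while the ratios still differed by -0.48 and -0.49. Each relative has its own probes, and how far the probes of such similar sequences share signal was not measured.

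MiR-22, a widely expressed miRNA, was at 2.39, 2.42 and 2.40 on day 14 and at 2.83, 2.74 and 2.95 on day 5. The difference was the smallest of those called, at -0.43 (standard error 0.12, limma, adjusted p = 0.035), and with quantile normalization it was 0.63 in the opposite direction. MiR-7a was near the floor, at -4.64, -4.68 and -5.21 on day 14 and at -4.16, -3.72 and -3.32 on day 5, or 26.8 to 32.9 intensity units against 45.9 to 71.8. Its difference of -1.11 (standard error 0.25, limma, adjusted p = 0.012) came from 1 probe (-1.10), since the other lay at the floor on all 6 arrays. Blocked for slide it was -0.82 (limma, adjusted p = 0.31).

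Of the leukocyte list, 10 miRNAs were on the array and 6 were tested. The median difference was 0.48 against -0.005 over all tested, and limma called 1 higher, miR-342-3p, and 0 lower, where 2.91% of the tested miRNAs were called higher. MiR-223, a miRNA of myeloid cells, was at -0.00, -0.31 and -0.38 on day 14 and at -0.75, -1.12 and -0.38 on day 5, and the days met at replicate 3 of each. Its difference of 0.52 was not called (limma, adjusted p = 0.17), and the blocked value was 1.26 (limma, adjusted p = 0.076). MiR-155, induced in activated lymphocytes and macrophages, had a difference of 0.77 (limma, adjusted p = 0.076), and it was called without replicate 3 of day 14 or without replicate 3 of day 5.

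Both arms of miR-142, a hairpin of all blood cells, overlapped between the days. MiR-142-3p was at 1.05, 1.44 and 0.65 on day 14 and at 1.14, 1.18 and 2.77 on day 5, and miR-142-5p at -2.47, -2.28 and -2.33 on day 14 and at -2.82, -2.94 and -1.60 on day 5. Replicate 3 of day 5 was the highest of the 6 arrays for both arms. Neither difference was called (-0.65 and 0.09, limma, adjusted p = 0.32 and 0.93). The log2 ratio of the 3p to the 5p arm was 3.52, 3.73 and 2.98 on day 14 and 3.96, 4.12 and 4.37 on day 5, without overlap. Its difference between the days was -0.74 as measured and -0.23 with quantile normalization. The summed signal of the leukocyte list was 3.37 to 4.56 on day 14 and 3.32 to 8.47 on day 5, where the highest value was replicate 3. MiR-150, of mature lymphocytes, was detected on no array, and miR-181a and miR-146b on 2 arrays of day 14 and none of day 5, at or near the floor. The part of these markers in the falls of the hepatocyte miRNAs was not tested.

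**Figure D4:**
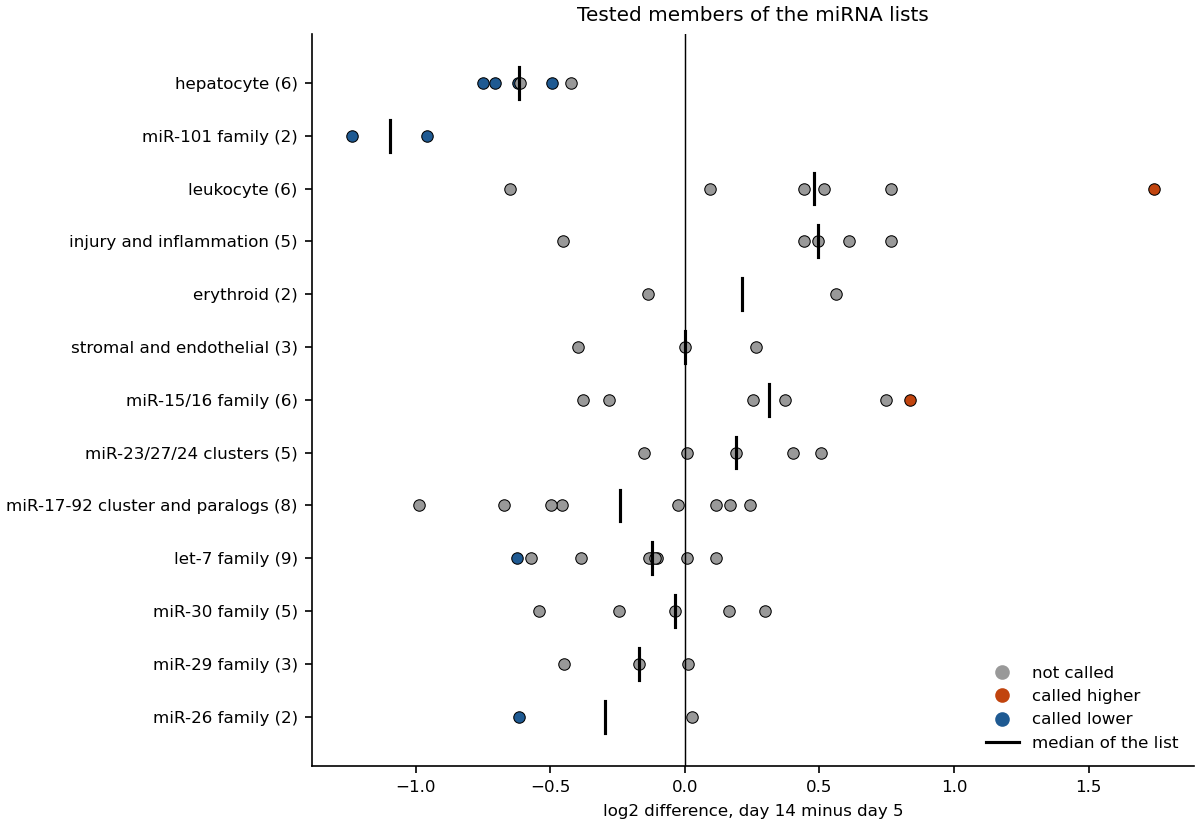
Log2 difference between day 14 and day 5 for the tested members of 13 lists, with the number tested in brackets, a line at each median and the calls coloured. All 6 hepatocyte miRNAs lie below 0, and miR-342-3p stands apart within the leukocyte list.

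Of the other cell types, erythroid miR-451 and miR-144 gave 0.56 and -0.14 and neither was called. The 2 days overlapped for both, and miR-144 was highest on replicate 3 of day 5 (-1.97, against -4.03 to -2.85 on the other 5 arrays). Among the 3 tested stromal and endothelial miRNAs, miR-126-3p, the endothelial miRNA, was the steadiest, at -0.09 to -0.00 on day 14 and -0.12 to -0.01 on day 5 (difference 0.00, limma, adjusted p = 0.995). The muscle and stromal miR-145 was detected on no array. Of the 5 biliary miRNAs of the miR-200 family 0 were tested, and 3 of them were detected on no array.

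In the list of injury and inflammation, 5 of 6 miRNAs were tested and 0 were called, where 12.6% of all tested miRNAs were called. MiR-21, which rises in many injured tissues, was at 4.85, 4.98 and 4.55 on day 14 and at 5.29, 4.99 and 5.45 on day 5, a difference of -0.45 (limma, adjusted p = 0.17). The arrays of day 14 were all lower, yet replicate 2 of each day nearly met. The blocked difference had the opposite sign (0.24). MiR-34a, a target of p53, and hypoxia-linked miR-210 gave 0.50 and 0.61.

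Within the miR-15/16 family, miR-322 was called, and miR-15b, miR-16 and miR-15a had all arrays of day 14 above those of day 5 without being called (0.75, 0.37 and 0.25, limma, adjusted p = 0.062, 0.15 and 0.19). MiR-15b was at -0.82, -1.03 and -1.11 on day 14 and at -1.88, -1.66 and -1.67 on day 5. MiR-195 and miR-497, near the floor, gave -0.28 and -0.38. Over all tested miRNAs 21 of 103 (20.4%) had all arrays of day 14 above. The median of the 6 was 0.31, against -0.005 over all tested. With the slide as a block all 6 were above 0, with a median of 0.76. The block put 73 of the 103 tested miRNAs above 0, with a median of 0.32. MiR-15b was called under 15 of the 40 alternatives with adjusted p-values.

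Among the clusters of miR-23, miR-27 and miR-24, 0 of 5 were called, where 12.6% of all tested miRNAs were called. MiR-27a and miR-23a, from the cluster on chromosome 8, gave 0.51 and 0.40, and miR-27b and miR-23b, from that on chromosome 13, gave -0.15 and 0.01. The log2 ratio of miR-27a to miR-27b was 2.20, 1.83 and 1.71 on day 14 and 1.52, 1.08 and 1.17 on day 5. That of miR-23a to miR-23b was 1.05, 0.79 and 0.70 on day 14 and 0.54, 0.41 and 0.42 on day 5. Both ratios were higher on every array of day 14, and with the slide as a block they differed between the days by 0.88 and 0.67.

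**Figure D5:**
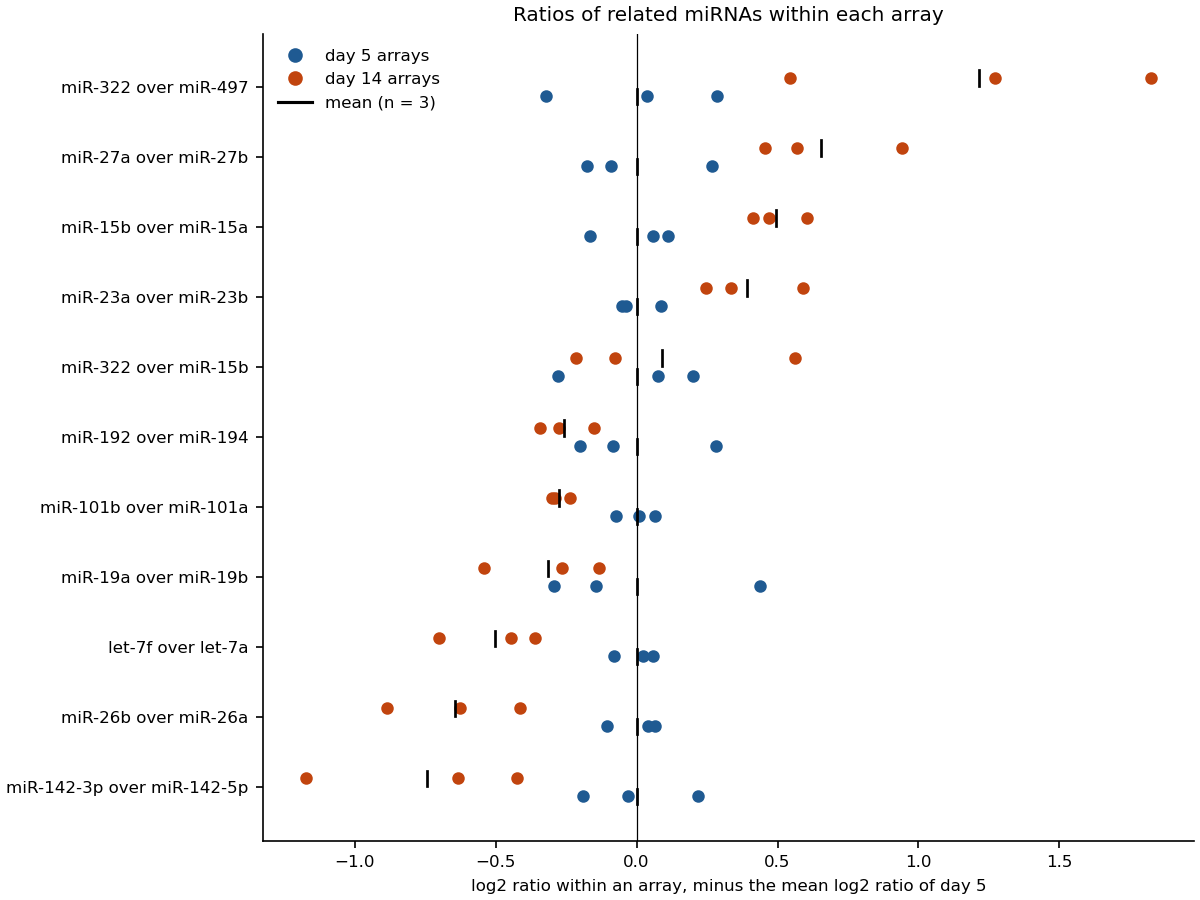
Log2 ratio of 2 related miRNAs on each array, as its difference from the mean of day 5, for 11 pairs. For 8 of the 11 pairs the arrays of day 14 (red) lie wholly to one side of those of day 5 (blue), 4 above and 4 below. Of the single tested miRNAs, 44 of 103 (42.7%) did not overlap, and no share was taken over other pairs. The pairs were chosen with results known and carry no test.

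For the remaining families the share to compare with is 13 of 103 tested miRNAs called (12.6%). With so few members, 0 or 1 call does not set a family apart from that share. Of the miR-17-92 cluster and its paralogs, 8 of 12 were tested and 0 called, with miR-19a and miR-19b the lowest (-0.99 and -0.67, limma, adjusted p = 0.052 and 0.076). In the let-7 family, let-7f was the 1 call of 9, and let-7g (-0.57, limma, adjusted p = 0.052) also had all arrays of day 14 below those of day 5. The median of that family was -0.12 and turned to 0.12 without scaling and to 0.49 with the slide as a block. Over all tested miRNAs these medians were -0.005, 0.23 and 0.32. None of the 5 miR-30 or 3 miR-29 miRNAs was called (0 of 5 and 0 of 3). MiR-148b and miR-152, relatives of miR-148a, were too dim to be tested. Of the miR-99/100 and miR-125 miRNAs, 2 of 5 on the array were tested and 0 called (-0.32 for miR-99a and -0.13 for miR-125b-5p).

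Of the 10 miRNAs that the study picked from these grafts, 7 had positive and 3 negative differences. Limma called the 3 negative ones, miR-101a, miR-101b and miR-148a, lower, where 9.71% of the tested miRNAs were called lower. With the slide as a block these gave -0.64, -1.05 and -0.19, and 0 were called (limma, adjusted p = 0.39, 0.10 and 0.62). Without scaling 0 of the list were called lower, and 1 with the percentile over all mouse miRNAs. The list was chosen on these samples and is not independent evidence of its direction. Star strands, the usually less abundant strand of a hairpin, were mostly undetected. Of 114 on the array, 107 were detected on none of the 6 arrays and 5 were tested. Of these 0 were called, where 12.6% of all tested miRNAs were called.

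MiR-720, which is now regarded as a fragment of a transfer RNA, had the largest difference of all and is named for that, outside the rule for naming. It was at 1.76, 2.90 and 2.17 on day 14 and at 3.92, 3.54 and 5.75 on day 5, and replicate 3 of day 5 was again the highest. The difference of -2.13 (standard error 0.76) was not called (limma, adjusted p = 0.076), and both probes gave it (-2.24 and -2.11). Only 2 tested miRNAs were at 3-fold or more, miR-720 and miR-342-3p.

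MiR-212 and miR-296-5p were undetected on a whole group, so that only a bound set by detection can be given. It was taken on each array against the miRNA's own scaled signal or the lowest signal well above background, whichever was higher. The bound leaves out the spread between arrays and is no lower limit of the change. For miR-212, detected on all 3 arrays of day 5 and 0 of day 14, the bound in the group means was 1.27-fold lower on day 14. The arrays of the days met at the floor, where all 3 of day 14 and replicate 2 of day 5 lay. For miR-296-5p, detected on all 3 arrays of day 14 and 0 of day 5, the bound was 1.33-fold higher. The days overlapped, since replicate 3 of day 5 (-4.27) lay above all 3 arrays of day 14 (-4.54, -4.41 and -4.52), and the difference turned to -0.23 with the slide as a block. Neither miRNA was called (limma, adjusted p = 0.61 and 0.42).

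Base composition moved with the differences. The set of RefSeq sequences used here held 85 of the tested miRNAs (82.5%). Over these, the share of G and C in the mature sequence was set against the log2 difference. The Pearson correlation was 0.50 as measured and 0.11 with the slide as a block. These miRNAs share the same 6 arrays and their scaling. The correlation of that share with the difference of the syngeneic arrays between slides (slide 2 minus slide 1) was -0.31. The median share was 52.2% in the 3 miRNAs called higher, 40.9% in the 9 called lower that have a sequence and 45.5% in all 85. Its part in the calls was not tested.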

How the data were processed

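MiRNA of 15 mouse liver grafts was measured with 1-color (Cy3) Agilent 8 x 15K mouse miRNA arrays, 3 mice per group. Per the file headers, the authors deposited Feature Extraction (version 9.5.1.1) output: the processed intensity of each spot, background-subtracted and not normalized between arrays, with detection and outlier flags. Arrays lay on 2 slides. The deposited table of log2 values and 10 viral miRNAs were not used in the comparison.

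Spots were averaged by probe, leaving out outlier spots, and the probes of a miRNA were summed. Detection required a share of at least 0.5 of a probe's spots well above background. For scaling, each array's 75th percentile was taken over the 52 miRNAs that every array detected. Scaled values under 0.0270 were set to this floor before the log2 was taken. The percentile was taken over detected miRNAs because most of the 567 were undetected. The floor understates changes of dim miRNAs, and 3.88% of the tested values on the 6 arrays lay at it. The number of arrays limits the precision.

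The 103 miRNAs detected on all 3 arrays of a group were fitted with limma 3.58.1 (R 4.3.3), 1 mean per group over 15 arrays, which pools the spread (13.0 degrees of freedom). P-values were adjusted by Benjamini-Hochberg over the 103, with a threshold of 0.05. The fit was tested on simulated data. Alternatives were other scalings, probe summaries, filters, floors, a normexp correction (offset 50), the methods' Student t-test, slide and replicate blocks and each array left out.

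The members, lists and tests were chosen with earlier results of these data known. Named are called miRNAs whose arrays did not overlap (up to 15 rises and 15 falls), those called with the slide as a block, and the list members. Sequences are from a set of RefSeq entries (GRCm38.p6), in which 85 tested miRNAs matched by name. The array's design names build mm9, and no array coordinates were used. Tables and figures used Python 3.11.15 (pandas 2.3.3, matplotlib 3.10.9).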

Additional observations from a re-analysis of the deposited data

How the results depend on the processing

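All 13 calls kept their sign under the alternatives for which they had one, except miR-122 (0.31) and miR-22 (0.63) with quantile normalization, let-7f with the slide as a block without syngeneic replicate 1 (0.13) or with a replicate block (0.075), and miR-26b with slide and replicate block (0.0039). MiR-92a, not called here (-0.02), was called at 1.20 with the slide as a block without syngeneic replicate 1. The causes were not tested. MiR-342-3p was called under 39 of 40 alternatives (limma and others, adjusted p from 2.2e-05 to 0.067), miR-101b under 36 of 41 and miR-22 under 14 of 41.

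Against 13 calls, 3 higher and 10 lower, other scalings gave 3 (1 and 2) with the percentile over all mouse miRNAs, 20 (7 and 13) with the 6 arrays' miRNAs, 12 (4 and 8) with quantiles, 20 (9 and 11) with medians and 1 (1 and 0) without scaling, where the median of all differences was 0.23. Probe summaries gave 23 (3 and 20) with the brightest probe and 18 (6 and 12) with the mean log2. Normexp gave 10 (3 and 7). No filter gave 3 (1 and 2) of 567 miRNAs, the filter of 1.5 times the mean 13 (2 and 11) of 37 and detection on all spots 19 (4 and 15) of 92. The floor divided by 4 gave 6 (1 and 5) and multiplied by 4 16 (6 and 10). Only the 6 arrays gave 10 (4 and 6), and trend and robust moderation 17 (5 and 12). The methods' t-test gave 28 (12 and 16) unadjusted and 0 (0 and 0) after Benjamini-Hochberg.

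With the slide as a fixed block 2 (2 and 0) were called, as a random block 3 (2 and 1), as a fixed block without syngeneic replicate 1 13 (10 and 3) and without syngeneic replicate 2 3 (2 and 1). Same-numbered arrays of the days did not deviate together (correlations 0.079, -0.29 and -0.079). Differently numbered ones ranged from -0.28 to 0.35. These values cannot tell whether the numbers follow a shared order of processing, and the main fit did not pair the arrays. A replicate block gave 9 (3 and 6), and with the slide 1 (1 and 0). With each array left out the count was 5 to 20, with 2 to 6 higher and 3 to 15 lower. Leaving out day 14 replicate 1 gave 5, and day 5 replicate 2 gave 7. Of the 13 calls, miR-342-3p, miR-101b, miR-192 and miR-7a were kept with every array left out.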

Other observations

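One of the 10 viral miRNAs on the array, mghv-miR-M1-2 of a murine herpesvirus, was detected on 14 of the 15 arrays. Its unscaled intensity was 141, 142 and 148 on day 14, 141, 136 and 129 on day 5 and 144, 142 and 143 on the syngeneic arrays. It stayed at 142 to 148 where the 75th percentile was 395 (syngeneic replicate 2) and 1018 (day 14 replicate 3). The array without detection, day 100 replicate 1, had the highest intensity, 215. Whether the signal came from a virus was not tested.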
